A study of Mus musculus with 18 samples.

Results

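The last 2 sampling times of a time course in cultured fibroblasts, 46 h and 40 h after dexamethasone, were compared across all genes. The comparison used 6 of the 18 arrays of the study, 3 at 46 h and 3 at 40 h, chosen by the sampling time in their labels. All 18 arrays held RNA from wild type C57BL/6 mouse embryonic fibroblasts, the connective tissue cells that grow out of minced embryos, here from embryonic day 13 and, per the labels, from 2 mice. Both groups had been exposed to 100 nM dexamethasone for 2 h, so no array of this comparison lacked the treatment, and they differed only in the labelled time of RNA extraction. The labels call the 3 arrays of a time biological replicates without saying whether they came from separate cultures or animals, so the p-values below measure the spread between these samples, which may be technical.

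Dexamethasone is a synthetic glucocorticoid, and a short pulse of it brings the circadian clocks of cultured cells into step. In that clock, the activators CLOCK and BMAL1 (gene Arntl) switch on the Per and Cry repressors, the nuclear receptors REV-ERB alpha and beta (Nr1d1 and Nr1d2) and the D-box transcription factor DBP, and the repressors then shut the activators down. Fibroblasts left in dense culture also leave the cell cycle, deposit matrix and secrete chemokines such as CCL5, which attracts T cells and monocytes.

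Median intensities were 208.6 to 210.2 on the 46 h arrays and 203.8 to 209.0 on the 40 h arrays. Arrays of 1 time correlated with Pearson's r of 0.997 to 0.998 at 46 h and 0.994 to 0.996 at 40 h, across genes, which are not independent replicates. Among 15 fibroblast markers, 12 had a mean level above the 75th percentile of all genes. None of the 10 macrophage, 9 endothelial, 9 epithelial and 9 adipocyte markers had a mean above the median gene. Such a mean was found for 3 of 8 neural, 3 of 10 skeletal muscle and 2 of 7 bone and cartilage markers. These levels come from different probe sets and are only a coarse check of the labelled cell type. The small number of arrays a time limits the precision. Of the variance within times, 33.8% lay along 1 component, on which the 46 h arrays stood at 0.16, -0.32 and 0.16 and the 40 h arrays at -0.29, 0.41 and -0.11; its part in the results below was not tested.

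Between 40 h and 46 h, 5 genes rose and 2 fell among 19938 tested (limma on log2(intensity + 16), Benjamini-Hochberg adjusted p below 0.05), which is 0.0351% of genes. The genes that rose were 0.0251% of those tested and the genes that fell were 0.01%. With 0.0351% of genes past the threshold, a short gene list would mostly hold 0 of them. Counts of 0 below therefore say little about a list. They were the chemokine gene Ccl5 and the retinoic acid binding protein gene Crabp1, both lower at 46 h, and Col10a1, Adm, Slc1a6, Fst and Zim1, all higher at 46 h. At an unadjusted p below 0.05 the comparison held 1616 genes (8.11%), of which 683 were higher (3.43%) and 933 lower (4.68%). Another 35 genes had an adjusted p between 0.05 and 0.1, 17 of them higher and 18 lower. The median difference over all genes was -0.01 log2. In bulk RNA, a change in the share of cells that carry a transcript and a change in RNA per cell cannot be told apart.

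**Figure D1:**
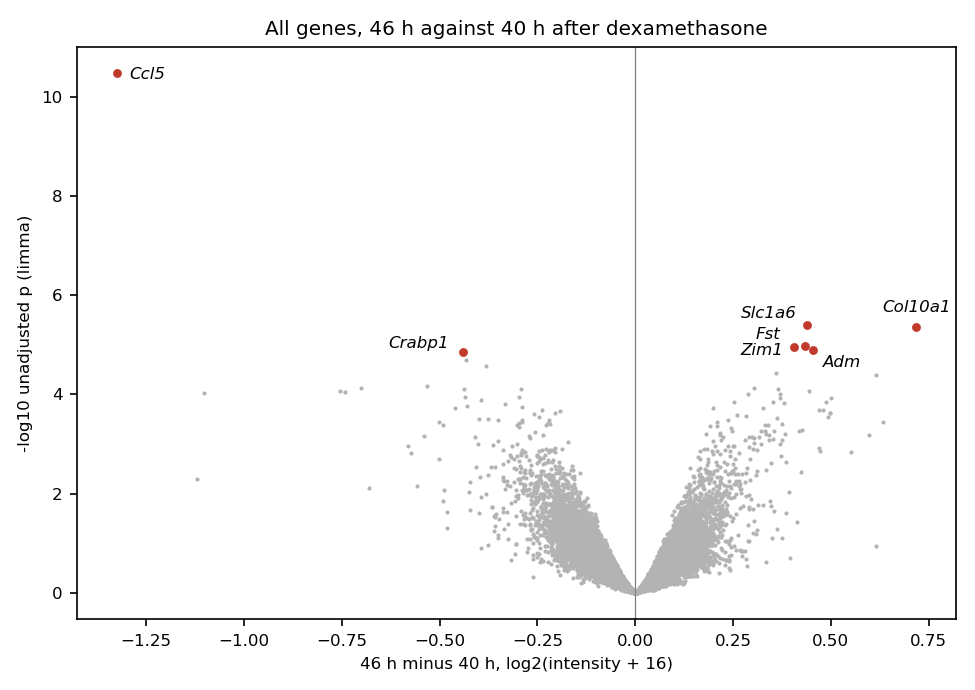
Each point is 1 of the 19938 genes, placed by its difference (46 h minus 40 h, log2(intensity + 16), horizontal) and the -log10 of its unadjusted p from limma (vertical). The 7 genes that passed the adjusted threshold are red and named. Ccl5 has the lowest difference, -1.32, and lies far from all others on the vertical axis.

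Ccl5 (probe set 10389207) had levels of 8.05, 8.17 and 7.73 log2 on the 46 h arrays, against 9.26, 9.38 and 9.28 on the 40 h arrays. No 46 h array came within 1 log2 unit of any 40 h array. The difference was -1.32 ± 0.09 log2 (SE, n = 3 arrays a time, adjusted p = 6.68e-07, limma), a level at 46 h of 0.399 of that at 40 h. The 12 arrays from 22 h to 34 h lay between 8.59 and 8.81, so that Ccl5 was flat until 34 h, highest at 40 h and lowest at 46 h. The 34 h to 40 h interval, which shares the 40 h arrays with this comparison, had itself a difference of 0.62 log2 (adjusted p = 0.00291, limma). The change over the last interval differed from that over the one before by -1.94 ± 0.15 log2 (SE, adjusted p = 9.29e-06, limma). Ccl5 was the 1 gene of 19938 (0.00502%) for which this difference between intervals passed the threshold, against 1567 (7.86%) at an unadjusted p below 0.05.

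Macrophages, which also make CCL5, were examined through their markers. The 10 measured macrophage markers had 0 members past the threshold, and their summed intensity was 1264 to 1339 at 46 h and 1289 to 1390 at 40 h. Cd68, a lysosomal protein of macrophages, differed by -0.0040 ± 0.07 log2 and the integrin gene Itgam by -0.05 ± 0.07. The median level of the 10 markers was 7.17 log2, against 8.07 over all genes. At such low levels a change could be missed, and a part of macrophages in the Ccl5 difference was not tested.

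Crabp1 (probe set 10585438), which encodes a cytosolic carrier of retinoic acid, had levels of 11.40, 11.46 and 11.17 on the 46 h arrays, against 11.80, 11.86 and 11.69 on the 40 h arrays. The arrays of the times did not overlap. The difference was -0.44 ± 0.07 log2 (adjusted p = 0.0395), and 46 h was the lowest of the 6 times. The mean of Crabp1 was lower at each successive time, from 12.15 at 22 h to 11.94 at 34 h and 11.78 at 40 h. Its change over the last interval did not pass as different from that over the one before (adjusted p = 0.616, limma).

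Col10a1 (probe set 10362495), the collagen of hypertrophic cartilage, had the largest rise among the genes that passed. It stood at 8.97, 8.85 and 9.09 on the 46 h arrays and at 8.31, 8.22 and 8.24 on the 40 h arrays. All 46 h arrays lay above all 40 h arrays, and the difference was 0.72 ± 0.11 log2 (adjusted p = 0.0285). The bone and cartilage markers as a list, with 7 measured members, had 0 members past the threshold and a median difference of 0.01 log2 (-0.024 to 0.031 with each array left out), and Sox9 and Col2a1 differed by -0.03 ± 0.06 and 0.07 ± 0.09.

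Adm (probe set 10556297), which encodes the vasodilator peptide adrenomedullin, had 9.48, 9.41 and 9.69 at 46 h, against 9.17, 8.99 and 9.06 at 40 h, a difference of 0.45 ± 0.08 (adjusted p = 0.0395). Adm belongs to a list of 18 measured glycolysis and hypoxia genes in which it was the 1 member that passed (0.0351% of all genes). The list's median was -0.06 log2 with 12 members below 0. Aldoa and Ldha, glycolytic enzymes, differed by -0.08 ± 0.07 and 0.05 ± 0.09.

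Slc1a6 (probe set 10364402), a glutamate transporter gene, had 8.37, 8.29 and 8.34 at 46 h, against 7.98, 7.75 and 7.95 at 40 h, a difference of 0.44 ± 0.07 (adjusted p = 0.0285). Fst (probe set 10412260), which encodes follistatin, a secreted antagonist of activin, had 8.77, 8.83 and 8.96 at 46 h, against 8.45, 8.26 and 8.55 at 40 h, a difference of 0.44 ± 0.07 (adjusted p = 0.0395). Zim1 (probe set 10559790), an imprinted zinc finger gene, had 9.10, 9.07 and 9.13 at 46 h, against 8.72, 8.69 and 8.67 at 40 h, a difference of 0.41 ± 0.07 (adjusted p = 0.0395). In each of these genes the arrays of the times did not overlap. All 5 genes that rose had their highest mean of the time course at 46 h, and both genes that fell had their lowest there. These genes were chosen by their difference at 46 h, which favours such extremes, so they are no added support. Col10a1, Adm, Slc1a6 and Zim1 had their lowest mean at 22 h and Fst at 26 h.

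Ccl5 remained past the threshold without any 1 of the 6 arrays compared. The other 6 genes each kept their call in 1 or 2 of those 6 fits. In all, 1 gene was called without 46 h replicate 1, without 46 h replicate 3 or without 40 h replicate 2, 2 genes without 40 h replicate 1 or without 40 h replicate 3, and 18 without 46 h replicate 2.

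**Figure D2:**
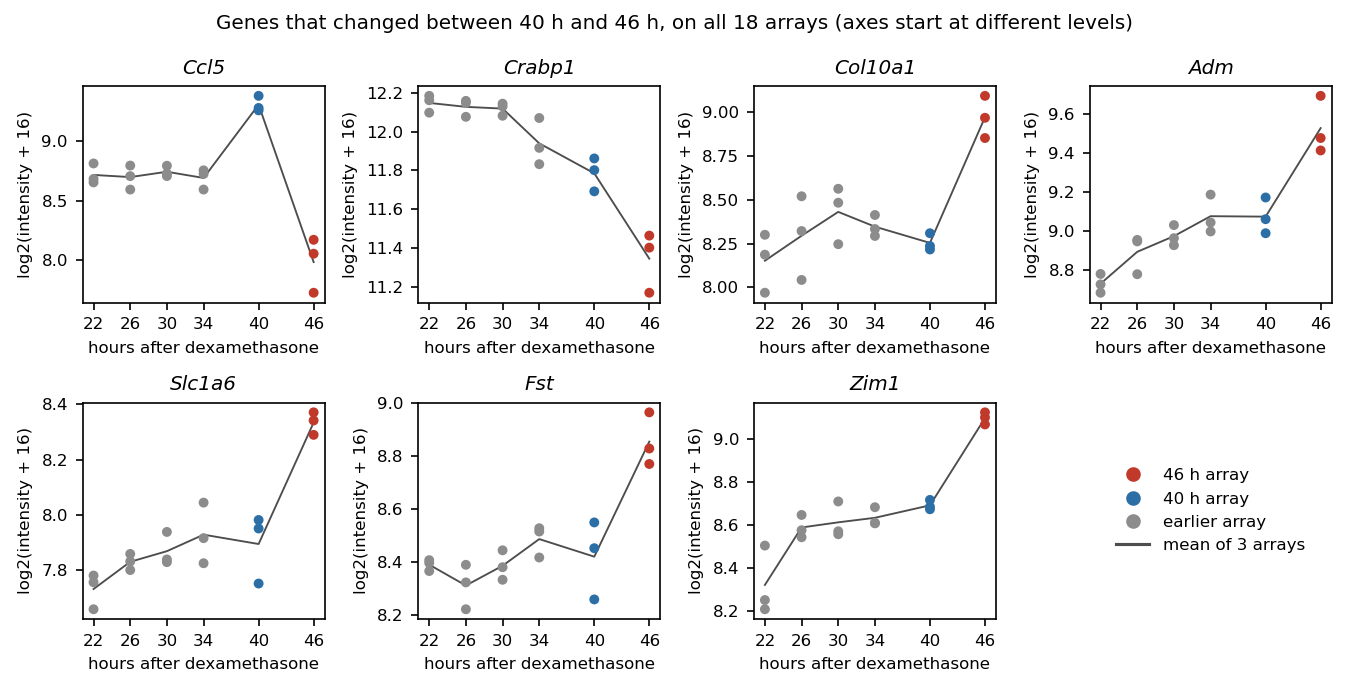
Levels (log2(intensity + 16), vertical) of the 7 genes that passed, on all 18 arrays by hours after dexamethasone (horizontal). Points are arrays, the line joins the means of 3 arrays, and the vertical axes do not start at 0. Ccl5 rises at 40 h and is lowest at 46 h, while the 5 genes that rose are highest at 46 h.

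The clock genes were compared next, since the pulse was given to synchronise them. None of the 21 measured core clock genes passed the threshold, against 0.0351% of all genes. An unadjusted p below 0.05 (limma) was found for 10, all with higher levels at 46 h, against 3.43% of all genes. On 12 clock genes all 46 h arrays lay above all 40 h arrays, against 5.22% of all genes, and on Nfil3 alone they lay below, against 7.07%. The median difference of the list was 0.13 log2.

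Dbp (probe set 10553092), the D-box activator driven by the clock, had 9.33, 9.46 and 9.20 at 46 h, against 8.80, 8.66 and 8.68 at 40 h. Its arrays were well apart, and the difference of 0.62 ± 0.11 log2 missed the threshold (adjusted p = 0.0728). Its relatives Tef and Hlf differed by 0.35 ± 0.09 and 0.18 ± 0.07.

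Per3 (probe set 10518781) had 7.98, 7.77 and 7.70 at 46 h, against 7.19, 7.43 and 7.03 at 40 h, with no overlap and a difference of 0.60 ± 0.14 (adjusted p = 0.145). Per1 differed by 0.37 ± 0.09 and Per2 by 0.29 ± 0.07, and the cryptochrome genes Cry1 and Cry2 by 0.17 ± 0.05 and 0.22 ± 0.06. All of these repressor genes had 46 h arrays above their 40 h arrays. Over the preceding interval, 34 h to 40 h, Per2 fell by 0.33 log2 (adjusted p = 0.045) and Cry1 fell by 0.27 (adjusted p = 0.00964).

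The REV-ERB genes Nr1d1 and Nr1d2, which repress Arntl, differed by 0.39 ± 0.16 and 0.36 ± 0.14. Arntl itself differed by -0.08 log2 with a 95% interval of -0.29 to 0.14, and its arrays overlapped. Clock, its partner, differed by 0.11 ± 0.06, and Arntl2 by 0.06 ± 0.06. Rora differed by 0.11 ± 0.05, Rorb by -0.09 ± 0.07 and Bhlhe41 by 0.13 ± 0.06. Bhlhe40, a repressor of E-box genes, differed by -0.03 ± 0.10, the D-box repressor gene Nfil3 by -0.12 ± 0.07 and Ciart by -0.13 ± 0.15. The casein kinase genes Csnk1d and Csnk1e, which act on PER proteins, differed by -0.0024 ± 0.04 and -0.00061 ± 0.06.

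**Figure D3:**
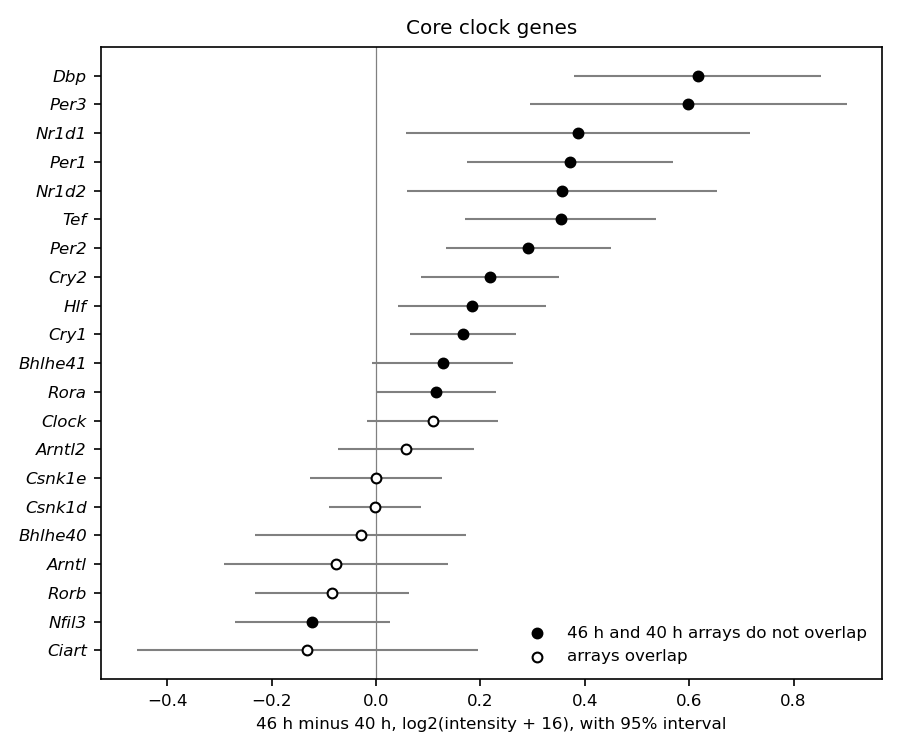
Difference of each of the 21 measured core clock genes (46 h minus 40 h, log2(intensity + 16), horizontal) with its 95% interval from limma. Filled points mark genes whose 46 h and 40 h arrays do not overlap, 12 with a positive difference and Nfil3 with a negative one. No gene passed the adjusted threshold.

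The promoters of these genes are shown because clock activators bind the E-box (CACGTG) and DBP binds the D-box (TTATGCAA, TTATGTAA or TTACGTAA). In the 250 bases before the start, on both strands, the E-box was found in 6 of 27 windows of the 18 core clock genes with a window, and the D-box in 2. Over all 32851 windows the E-box was in 6.02% and the D-box in 1.61%. Capitals mark the matches in the following windows, 5′ to 3′ on the gene's strand, from RefSeq on GRCm38.p6.

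Per1 (chr11:69098699-69098948, plus strand): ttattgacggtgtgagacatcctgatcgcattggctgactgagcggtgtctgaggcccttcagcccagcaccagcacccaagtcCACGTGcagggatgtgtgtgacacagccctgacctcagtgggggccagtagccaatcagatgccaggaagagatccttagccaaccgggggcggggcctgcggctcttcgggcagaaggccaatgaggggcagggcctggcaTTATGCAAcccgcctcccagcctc
Per3 (chr4:151044666-151044915, minus strand): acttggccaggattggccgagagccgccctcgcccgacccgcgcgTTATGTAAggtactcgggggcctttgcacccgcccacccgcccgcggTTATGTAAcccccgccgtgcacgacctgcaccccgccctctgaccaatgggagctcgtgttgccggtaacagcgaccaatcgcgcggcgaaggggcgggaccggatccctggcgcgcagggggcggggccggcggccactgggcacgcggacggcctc
Cry1 (chr10:85185055-85185304, minus strand): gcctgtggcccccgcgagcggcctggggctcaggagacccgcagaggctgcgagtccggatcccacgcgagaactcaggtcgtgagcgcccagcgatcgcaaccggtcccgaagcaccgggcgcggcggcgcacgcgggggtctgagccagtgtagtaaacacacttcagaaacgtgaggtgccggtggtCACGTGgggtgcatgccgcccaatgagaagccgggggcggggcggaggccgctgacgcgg

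These windows were chosen because they hold matches. The printed window of Per1 held both an E-box and a D-box, that of Per3 held 2 D-boxes and that of Cry1 held 1 E-box. Among windows not printed, that of Ciart held 3 E-boxes, and Ciart differed by -0.13 ± 0.15. Windows of Tef and Bhlhe41 also held E-boxes. The other window of Per1 and the windows of Dbp, Cry2, Nr1d1 and Nr1d2 held 0 matches to either motif. A match or its lack describes only these letters in these windows.

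Interferon response genes, which cells switch on after sensing viral nucleic acid or interferon, were mostly lower at 46 h without passing the threshold. None of the 14 measured members passed, and 12 had a negative difference. An unadjusted p below 0.05 (limma) was found for 7, all lower, against 4.68% of all genes. On 9 members all 46 h arrays lay below all 40 h arrays, against 7.07% of all genes. The median was -0.21 log2. The following members were chosen after their values were seen.

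Usp18, which removes the ubiquitin-like ISG15 from proteins, had 7.50, 7.54 and 7.83 at 46 h, against 8.66, 8.13 and 8.35 at 40 h, a difference of -0.76 ± 0.15 (adjusted p = 0.085). Ifit1, which binds foreign RNA ends, had 9.05, 9.16 and 9.47 at 46 h, against 10.16, 9.77 and 9.98 at 40 h, a difference of -0.74 ± 0.15 (adjusted p = 0.085). Oasl2 had 8.91, 8.83 and 8.99 at 46 h, against 9.95, 9.44 and 9.45 at 40 h, a difference of -0.70 ± 0.14 (adjusted p = 0.085). In these genes the arrays did not overlap, and 40 h replicate 1 was the highest of the 6. Rsad2, the antiviral enzyme viperin, differed by -0.33 ± 0.07 (adjusted p = 0.0946). The members with the highest levels, the RNA sensor Ddx58 and the transcription factor Stat2, differed by -0.09 ± 0.06 and -0.08 ± 0.05, and Ifit2 by 0.05 ± 0.06.

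**Figure D4:**
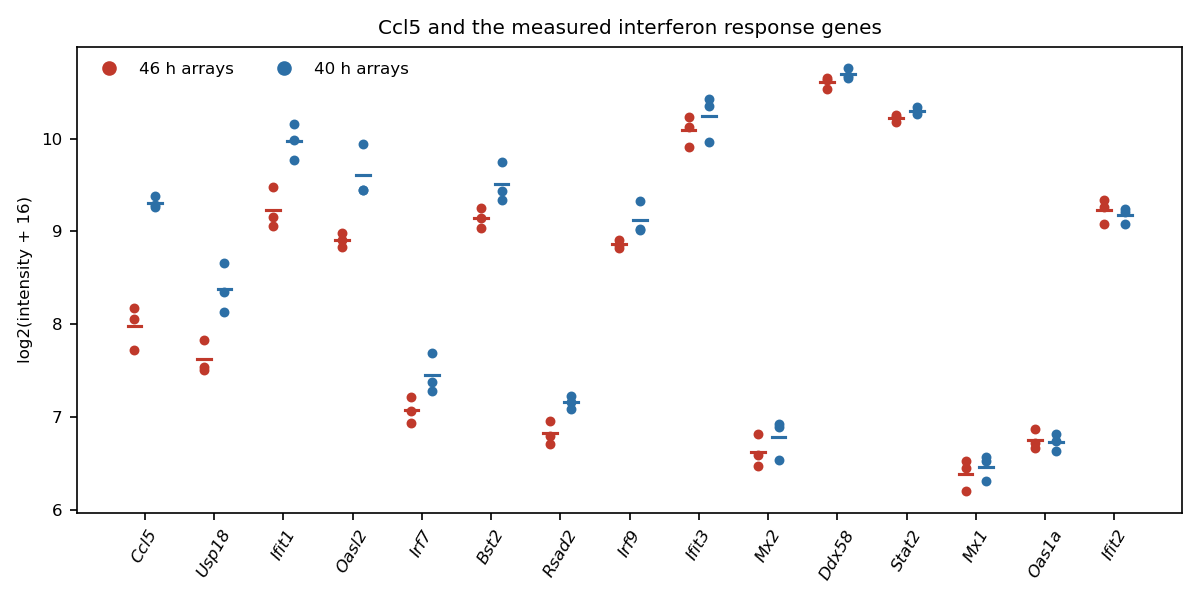
Levels (log2(intensity + 16), vertical) of Ccl5 and the 14 measured interferon response genes on each 46 h array (red, left) and 40 h array (blue, right), with bars at the means. Genes run by their difference, from Ccl5 at -1.32 to Ifit2 at 0.05, and the axis does not start at 0.

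The windows of Ifit1 and Ifit3, members of 1 family on chromosome 19, are shown because interferon-activated factors bind the response element searched here, GAAA followed by any 2 bases and GAAA. It was found on either strand in 6 of 13 windows of the 11 genes with a window, and in 2.98% of all windows.

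Ifit1 (chr19:34640639-34640888, plus strand): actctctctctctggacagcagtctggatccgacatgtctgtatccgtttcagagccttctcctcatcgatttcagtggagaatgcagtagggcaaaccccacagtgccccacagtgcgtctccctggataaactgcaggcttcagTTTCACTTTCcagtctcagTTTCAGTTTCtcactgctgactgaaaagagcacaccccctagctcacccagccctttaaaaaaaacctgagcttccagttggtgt
Ifit3 (chr19:34583279-34583528, plus strand): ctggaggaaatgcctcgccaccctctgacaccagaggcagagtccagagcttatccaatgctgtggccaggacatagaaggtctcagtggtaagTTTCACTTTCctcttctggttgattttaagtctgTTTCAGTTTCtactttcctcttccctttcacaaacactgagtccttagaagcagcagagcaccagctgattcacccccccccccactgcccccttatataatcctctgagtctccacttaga

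Both windows held 2 matches, in capitals, on the strand opposite to the one printed. Ifit3 differed by -0.16 ± 0.14 with overlapping arrays, although its window held as many matches as that of Ifit1. Oasl2, which differed by -0.70 ± 0.14, had 0 matches in its window.

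Of 17 measured inflammatory genes, Ccl5 was the 1 that passed (0.0351% of all genes), and the list's median was -0.04 log2. Cxcl12 and Vcam1, a chemokine and an adhesion molecule of stromal cells, differed by 0.01 ± 0.04 and -0.03 ± 0.07. Ccl7 and Ccl2, monocyte chemokines chosen after their values were seen, differed by -0.34 ± 0.10 and -0.34 ± 0.11 (adjusted p = 0.265 and 0.34).

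Genes of mitosis mostly had negative differences. None of 34 measured G2/M members passed, 33 had a negative difference, 21 had an unadjusted p below 0.05, all lower (4.68% of all genes), and 18 had all 46 h arrays below all 40 h arrays (7.07% of all genes). The median was -0.22 log2, and -0.28 to -0.14 with each array left out, against -0.55 over the interval from 34 h to 40 h, in which 29 members fell (164 of all genes, 0.823%, changed there, and 0.727% fell). Those intervals share the 40 h arrays. Cdk1, the kinase that starts mitosis, and Top2a, which untangles chromosomes, differed by -0.09 ± 0.12 and -0.09 ± 0.10. Cdc20, an activator of the anaphase-promoting complex chosen after its values were seen, differed by -0.41 ± 0.10 (adjusted p = 0.152). The 35 measured G1/S and replication genes had a median of -0.0028 log2, which ran from -0.084 to 0.048 with each array left out.

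All 20 measured genes of cholesterol synthesis and uptake had a negative difference, with 0 past the threshold, 10 with all 46 h arrays lower (7.07% of all genes) and a median of -0.18 log2. Fdft1, which commits farnesyl units to sterols, had 10.10, 10.18 and 10.15 at 46 h, against 10.42, 10.51 and 10.37 at 40 h. Its arrays did not overlap and its difference was -0.29 ± 0.06 (adjusted p = 0.1). Srebf2, the transcription factor of the pathway, differed by -0.22 ± 0.07. Over 34 h to 40 h the list's median was -0.27 and 4 members fell, against 0.727% of all genes.

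Extracellular matrix genes had 24 of 28 measured members above 0, with 0 past the threshold, 11 with all 46 h arrays higher (5.22% of all genes), 3 with all lower (7.07% of all genes) and a median of 0.10 log2, and 0.06 to 0.15 with each array left out. Fn1, fibronectin, and Dcn, the proteoglycan decorin, differed by 0.07 ± 0.04 and -0.02 ± 0.05. Postn, a matrix protein of remodelling tissue chosen after its values were seen, had 12.76, 12.67 and 12.80 at 46 h, against 12.32, 12.14 and 12.31 at 40 h. Its arrays were apart and its difference was 0.49 ± 0.10 (adjusted p = 0.093).

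Of 15 measured smooth muscle and contractile genes, 0 passed, 6 had all 46 h arrays higher (5.22% of all genes), and the median was 0.16 log2. Acta2, smooth muscle actin, differed by 0.22 ± 0.06 and the calponin gene Cnn2 by 0.05 ± 0.05. Among 16 matrix proteases and inhibitors and 10 genes of the IGF system 0 passed. The proteases and inhibitors went both ways, with all 46 h arrays higher for 6 (5.22% of all genes) and lower for 4 (7.07% of all genes). The gelatinase gene Mmp2 differed by 0.19 ± 0.04, while the other gelatinase gene, Mmp9, chosen after its values were seen, differed by -0.53 ± 0.10 (adjusted p = 0.085). Igf2, a fetal growth factor, differed by 0.14 ± 0.05.

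Of 19 measured glucocorticoid-induced genes, 0 passed, 12 were above 0 and the median was 0.07 log2. An unadjusted p below 0.05 (limma) was found for 7 higher (3.43% of all genes) and 4 lower (4.68%). All 46 h arrays were higher for 5 (5.22% of all genes) and lower for 4 (7.07%). Differences ran from -1.10 to 0.37 log2. The members with the highest levels, the metallothionein genes Mt1 and Mt2, differed by -0.25 ± 0.08 and -0.24 ± 0.07. Serpina3n, a protease inhibitor chosen after its values were seen, had 8.69, 8.99 and 8.45 at 46 h, against 9.50, 10.23 and 9.70 at 40 h. Its arrays did not overlap, but they spread widely, and its difference of -1.10 ± 0.22 missed the threshold (adjusted p = 0.085).

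Ribosomal protein genes had 20 of 21 measured members below 0, 3 with all 46 h arrays lower (7.07% of all genes), and a median of -0.13 log2. Of these members, 6 had an unadjusted p below 0.05 (limma), all lower (4.68% of all genes). Unfolded protein response genes had 16 of 18 above 0 and a median of 0.08, with Canx and Calr, chaperones of the endoplasmic reticulum, at 0.06 ± 0.06 and 0.10 ± 0.06. In 31 of the 33 lists no member passed the threshold. Since 0.0351% of all genes passed, this does not set the lists apart from other genes. On 6 lists the median over members was higher on all 46 h arrays than on any 40 h array, on 5 it was lower on all of them, and on 22 the arrays overlapped. Single genes were apart in 5.22% (higher) and 7.07% (lower) of all genes, but no such share was computed for lists. The lists share arrays and some members, such as Fn1 in the extracellular matrix and fibroblast lists, so they are not separate results.

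**Figure D5:**
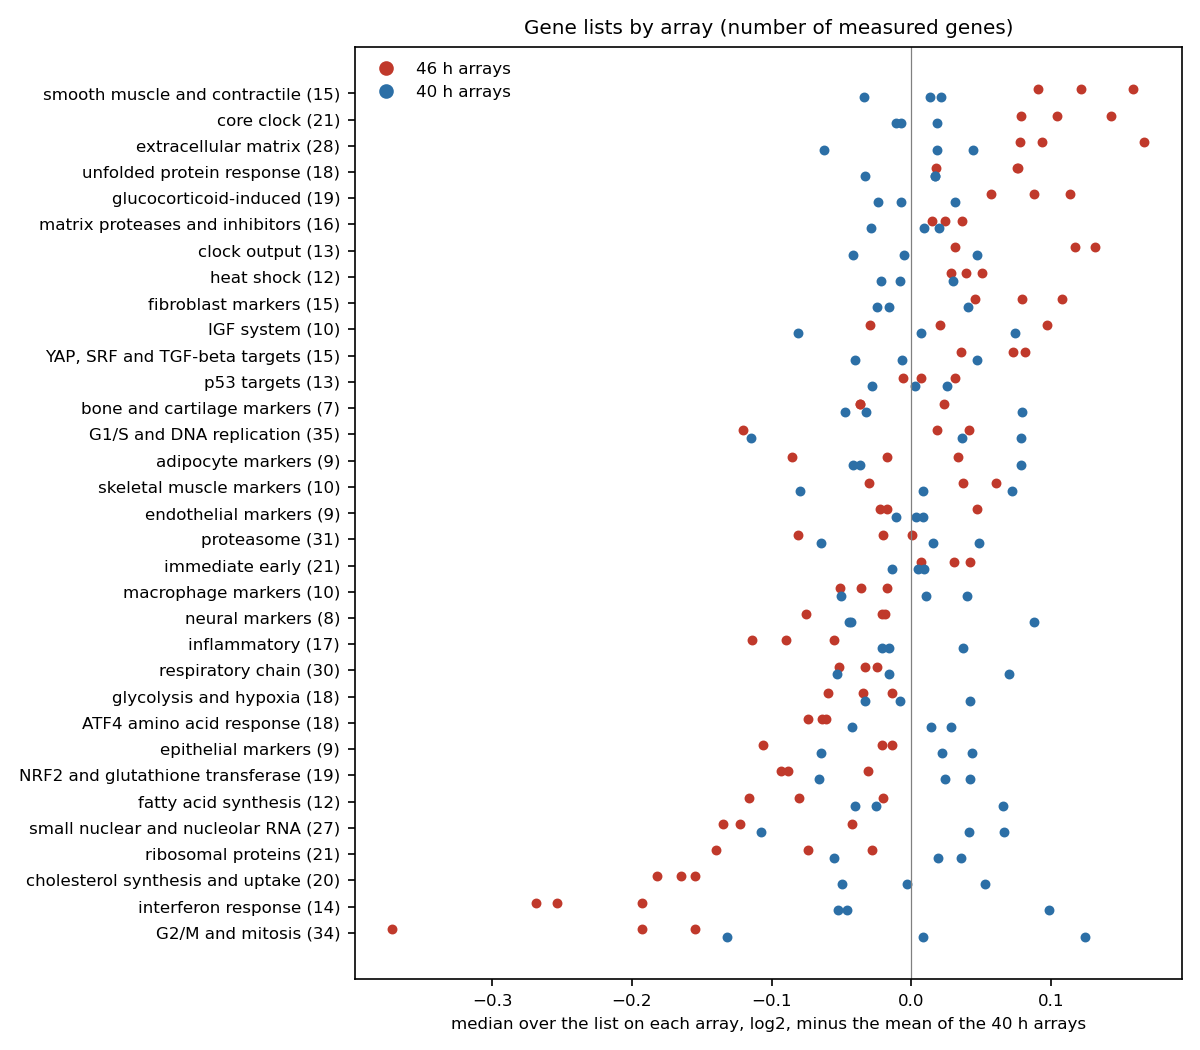
Median over the measured members of each of the 33 lists on each 46 h array (red, upper) and 40 h array (blue, lower), as log2 distance from the mean of the 40 h arrays (horizontal). Lists run by the median difference of their genes, from smooth muscle and contractile genes at 0.16 to G2/M and mitosis genes at -0.22, with the number of measured genes in brackets.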

How the data were processed

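Total RNA of 18 fibroblast samples was measured on Affymetrix expression arrays, per the labels' protocols. The authors deposited 1 linear intensity per probe set. The submitters' processing notes name PLIER 2.0 and Affymetrix Expression Console 1.1. Of 35556 probe sets, 21789 had 1 gene symbol in the platform annotation, 1621 had several and 12146 were unnamed here. The probe set with the highest mean was kept where a gene had several (999 genes), leaving 19938 genes, and 21698 of the single-symbol probe sets matched RefSeq by gene identifier.

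Intensities were taken as log2(value + 16), which understates changes of dim genes, and quantile normalized. A mean for each of the 6 times was estimated from the 18 arrays together (lmFit and eBayes, limma 3.58.1, R 4.3.3), with a common estimate of the spread. The contrasts were 46 h minus 40 h, 40 h minus 34 h, and their difference, with Benjamini-Hochberg adjustment over all genes at 0.05. The fit was checked on simulated data with independent noise for each gene and array. Such data lack the component that held 33.8% of the variance within times, so they do not check the calls under it. Figures used matplotlib 3.10.9.

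The members and the 33 gene lists were chosen with earlier results of these data known. Named genes were all measured core clock genes, up to 12 largest rises and 12 largest falls that passed with arrays apart, up to 4 members of each list that passed, and, in lists with fewer than 2 of these, the 2 with the highest level. Up to 4 genes in each direction of the difference between intervals were added. Olfactory, vomeronasal and taste receptors and gene models lacking a full name were passed over. Usp18, Ifit1, Ifit2, Ifit3, Oasl2, Rsad2, Ccl2, Ccl7, Cdc20, Mmp9, Postn and Serpina3n were named after their values were seen. Alternatives covered the normalization, the constant, dim genes, probe sets, the arrays fitted, a replicate block, weights on arrays, the variance model, the threshold and each array left out. No value column was left unused (0 columns).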

Additional observations from a re-analysis of the deposited data

Results flagged for a closer look

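Ccl5 changed differently over the last interval than over the one before it. Its change from 40 h to 46 h minus its change from 34 h to 40 h was -1.94 ± 0.15 log2 (SE, adjusted p = 9.29e-06, limma), with all 3 arrays at 46 h below and all 3 at 40 h above the 12 arrays of the earlier times. Both intervals use the same 40 h arrays.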

How the results depend on the processing

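Ccl5 kept its call under all 17 alternatives, with differences of -1.42 to -1.18 and adjusted p of 8.02e-08 to 0.0044; the other 6 genes kept theirs under 7 to 10 of 17. The number of genes called was 5 on values as deposited, 1 with a constant of 1, 30 with 64, 11 without the dimmest genes, 4 with only the arrays compared, 75 with array weights, 17 with a trended and robust variance, and 1 at an adjusted p of 0.01. Leaving out an array gave 1 to 18. Core clock calls were 1 with the constant of 64, without dim genes and with the trended variance (Dbp each time), and 2 with array weights (Dbp and Per3). The difference between intervals was called for 2 genes with only the arrays compared and for 1 to 3 when an array was left out. The replicate number as a block called 4 genes. Whether the numbers pair the samples cannot be settled with 3 arrays a time. Same-numbered arrays of 46 h and 40 h deviated from their time means with correlations of -0.28, -0.56 and -0.09. No 46 h sample correlated best with the 40 h sample of its own number. Of 528 recomputed list medians, 492 stayed within the spread between arrays. As deposited, medians were -0.0060 for immediate early, -0.029 for ATF4 amino acid response, 0.053 for p53 targets and 0.019 for endothelial markers. Without dim genes they were -0.10 for inflammatory and -0.30 for interferon response genes. With array weights they were -0.051 for immediate early, -0.13 for NRF2 and glutathione transferase, -0.0032 for small nuclear and nucleolar RNA, -0.068 for macrophage and -0.055 for endothelial markers. With an array left out, medians spanned -0.071 to 0.00067 for immediate early, -0.078 to -0.035 for inflammatory, -0.0026 to 0.044 for p53 targets, 0.13 to 0.19 for smooth muscle and contractile, -0.073 to 0.0066 for macrophage markers, 0.025 to 0.092 for matrix proteases and inhibitors, 0.069 to 0.12 for glucocorticoid-induced, -0.082 to -0.023 for glycolysis and hypoxia, -0.086 to -0.044 for ATF4 amino acid response, -0.30 to -0.16 for interferon response, -0.12 to -0.068 for NRF2 and glutathione transferase, 0.018 to 0.050 for heat shock, -0.18 to -0.087 for ribosomal proteins, -0.14 to -0.030 for small nuclear and nucleolar RNA, 0.12 to 0.16 for core clock and -0.021 to 0.025 for endothelial markers. The causes were not tested, and 3 arrays a time limit the precision.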
